A study of Mus musculus with 2 samples.

Results

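The distal miRNA array of the imprinted Dlk1-Dio3 locus was examined in small RNA libraries from mouse cerebral cortex. Its members were all miRNA genes of GENCODE M21 on the plus strand of chromosome 12 (mm10) whose start lies from that of Mir379 to that of Mir410, both included, a rule that uses position and no measured value. This gave 38 of the 2202 miRNA genes counted. They lie between 109709060 and 109743795 on chromosome 12, a span of 34.7 kb. The tissue was cortex of wild-type mice of strain B6NCrl, described as female controls, profiled in 2 libraries labelled as biological replicate 1 and biological replicate 2. Each library has a biosample of its own, but both cite a single donor record, and age and developmental stage are not given. Separate animals are therefore not stated, and the spread between the libraries may be technical. There is 1 group, and no treatment, genotype or other tissue to compare.

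MicroRNAs (miRNAs) are short RNAs cut from hairpins in longer transcripts, first by the Microprocessor complex in the nucleus and then by Dicer. Each pairs with messenger RNAs mainly through its seed, bases 2 to 8 counted from its 5′ end, and represses them. The Dlk1-Dio3 locus is imprinted: its noncoding RNAs and miRNAs are transcribed from the maternal chromosome, and the array examined here lies at the far end of that long transcription unit, partly within the noncoding gene Mirg. The array is found in placental mammals and is prominent in brain, where some of its miRNAs act on dendrites, spines and neuronal migration. Mice that lack it have been described with altered metabolic adaptation after birth and with anxiety-like behaviour.

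Mature sequences of 37 of the 38 members, 69 arms in all, were found in RefSeq (GRCm38.p6), and Gm27379 had none. The deposited counts are per gene and do not tell the 5p arm of a hairpin from the 3p arm, so both arms are printed where the table holds both. The first set shows the 5 most abundant members, which together made up 69.9% of the array's counts (mean of the libraries). Capitals mark the seed.
miR-541-5p: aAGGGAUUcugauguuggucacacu
miR-541-3p: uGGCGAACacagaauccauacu
miR-487b-5p: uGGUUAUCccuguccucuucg
miR-382-5p: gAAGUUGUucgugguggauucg
miR-382-3p: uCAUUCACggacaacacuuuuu
miR-154-5p: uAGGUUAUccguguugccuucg
miR-154-3p: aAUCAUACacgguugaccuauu
miR-485-3p: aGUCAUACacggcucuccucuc
No 2 of these 8 arms have the same seed. Over the whole array, the 69 arms carry 63 different seeds.

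Among the arms in the table there were 6 seeds that a pair of members shared, and 11 members took part in them. For 5 members the table holds only 1 arm, so a seed shared through an arm not held would be missed. The pairs are shown because a shared seed pairs with the same sites in messenger RNAs. Capitals again mark the seed.
miR-379-5p: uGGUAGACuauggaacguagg
miR-1193-5p: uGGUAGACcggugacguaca
miR-379-3p: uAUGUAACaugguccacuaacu
miR-411-3p: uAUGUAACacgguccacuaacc
miR-1197-5p: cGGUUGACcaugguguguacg
miR-758-5p: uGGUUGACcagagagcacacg
miR-494-5p: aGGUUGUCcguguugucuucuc
miR-410-5p: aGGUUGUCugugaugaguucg
miR-453: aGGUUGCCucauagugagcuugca
miR-496a-5p: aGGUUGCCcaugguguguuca
miR-376c-5p: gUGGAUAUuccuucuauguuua
miR-376b-5p: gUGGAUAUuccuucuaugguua
None of these 6 seeds belongs to a mature arm of a gene outside the array in the table. Of the other arms of the array, 11 have a seed found outside it, among them miR-329-3p, whose seed ACACACC is also that of miR-362-3p, and miR-410-3p, whose seed AUAUAAC is also that of miR-344d-3p and miR-344e-3p.

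Some arms shared further letters. The motifs were chosen after the sequences were read and were searched in the mature RNA as written, 5′ to 3′. GGUNGNCC, with N for any base, occurred in 13 of the 69 arms (18.8%), of 12 members, and in 5 of 1669 arms of all other genes in the table (0.300%). ACANGGU occurred in 7 of the 69 arms (10.1%) and in 12 of the 1669 others (0.719%). GGUCCAC occurred in 5 arms of the array (miR-379-3p, miR-411-3p, miR-380-3p, miR-758-3p and miR-412-3p) and in none of the 1669 others. ACANGGU overlaps GGUNGNCC in miR-323-3p and miR-154-3p, and it overlaps GGUCCAC in miR-379-3p and miR-411-3p. These matches describe the letters of the RNAs.

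As a check of the tissue, neuronal genes were abundant, with Mir132 at 52078 ± 13446 CPM and Mir598 at 11249 ± 1807 CPM (SD, n = 2). CPM stands for sense counts per 1000000 such counts in all miRNA genes. The 4 muscle genes Mir1a-1, Mir1a-2, Mir133a-1 and Mir133a-2 had no count. They are numbered copies, and a read that fits both copies would enter neither count, so these zeros do not show that muscle RNA was absent. Of the other genes checked, muscle Mir206 was at 19.9 and 29.5 CPM, liver Mir122 at 25.3 and 31.3 CPM and red blood cell Mir451a at 1.81 and 10.7 CPM, and Mir144 had 3 counts and none. Neuronal Mir138-1 was at 4879 and 4644 CPM and Mir128-1 at 6979 and 7805 CPM. Oligodendrocyte Mir338 was at 2638 and 2366 CPM and Mir219a-2 at 4461 and 5475 CPM. The libraries differed more in the epithelial and choroid plexus markers. All 5 epithelial Mir200 family genes were higher in replicate 1, from 40.7 to 900.5 CPM in replicate 2 against 538 to 6184 CPM in replicate 1, and the choroid plexus genes Mir204 (778 and 1755 CPM) and Mir211 (3.16 and 9.59 CPM) were higher in replicate 2. The part of these differences in the levels of the array was not tested. Sense counts in miRNA genes totalled 4429633 in replicate 1 and 6985784 in replicate 2, and a count of 0 allows a level of up to 0.677 and 0.429 CPM. Reads placed at several loci, 43.9% and 47.9% of all reads, enter no gene's count. All intervals and limits cover counting error only.

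In replicate 1 the array took 4.32% of all counts (95% Wilson interval from 4.30 to 4.34%), in replicate 2 it took 4.74% (from 4.73 to 4.76%), and the mean was 4.53% ± 0.298 (SD, n = 2). The gap between the libraries was wider than counting error. Shares and ranks here leave out reads placed at several loci, so genes whose reads fit several loci are undercounted beside the array. The array's share with such reads included was not measured. At 2 CPM or more in both libraries, 33 of the 38 members were detected, against a background of 19.9% of all 2202 genes. The median member had 233 CPM in replicate 1 and 210 CPM in replicate 2, while the median over all genes was 0 in both and that of the 787 genes with a count was 4.06 and 3.01 CPM. Of the members, 10 had a mean of 1000 CPM or more, 14 lay from 100 to 1000 CPM, 9 from 2 to 100 CPM and 5 below 2 CPM. The 11 highest members were among the 100 most abundant miRNA genes.

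**Figure D1:**
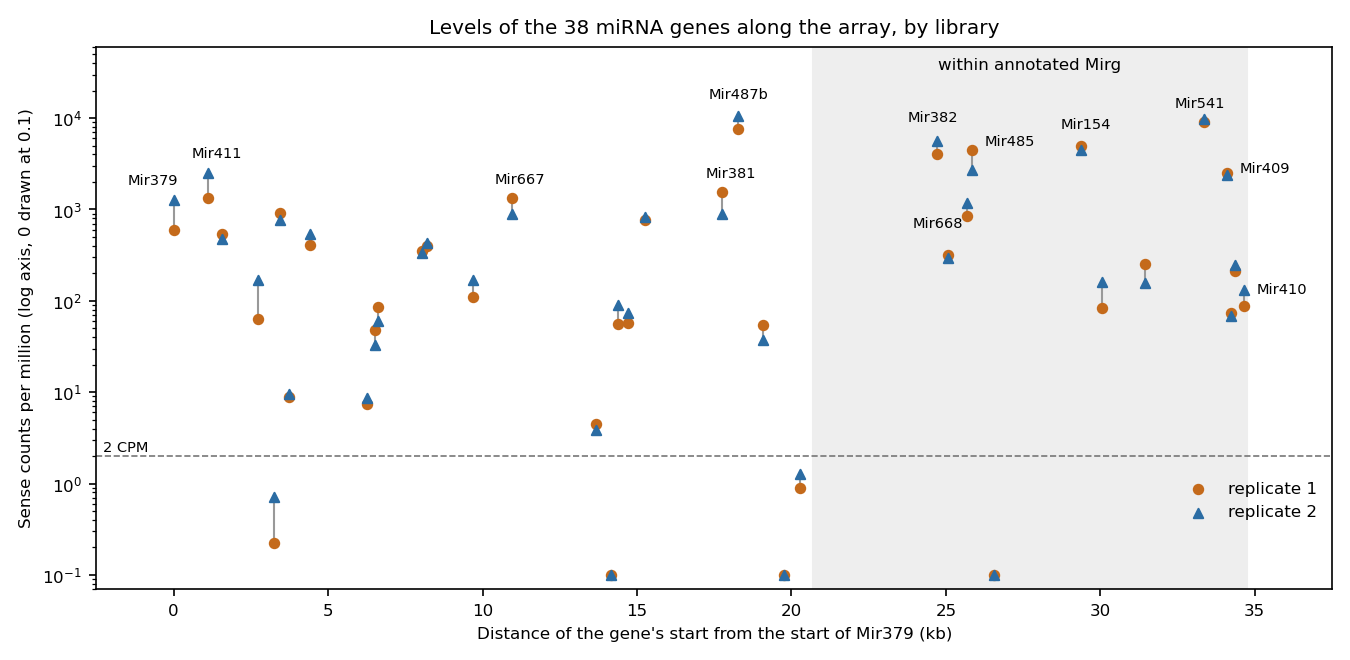
Sense CPM on a log axis for each of the 38 genes against the distance of its start from that of Mir379 in kb, with replicate 1 as circles and replicate 2 as triangles joined by a line, and the part within annotated Mirg shaded. High and low genes are interspersed along the array, with some neighbours alike in level. Levels run from Mir541 (mean 9430 CPM) and Mir487b (mean 9142 CPM) to 3 genes with no count, drawn at 0.1.

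The 2 most abundant members lie 15 kb apart. Mir541 (chr12:109742409-109742498, in an intron of Mirg) reached 8985 CPM in replicate 1, and in replicate 2 it reached 9874 CPM. Mir487b (chr12:109727333-109727414, before the start of Mirg) was counted at 7652 and 10631 CPM. They ranked 24 and 25 among all miRNA genes by mean CPM. Mir487b was the lower of the pair in replicate 1 and the higher in replicate 2, so their order was not fixed by these libraries.

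A gap separated this pair from the next members. Mir382 (chr12:109733771-109733846) was counted at 4080 and 5607 CPM. Mir154 (chr12:109738433-109738498), a gene in an intron of Mirg, was counted at 4974 and 4424 CPM. Mir485 (chr12:109734902-109734974), in an exon of Mirg, was counted at 4470 and 2672 CPM. The ranges of Mir382, Mir154 and Mir485 over the libraries overlapped, all 3 lay below both libraries of Mir487b, and all 3 lay above both of Mir409. Mir409 (chr12:109743158-109743236) was steady at 2521 and 2410 CPM. In the whole order of mean levels, 13 of 37 steps to the next lower gene lay between genes whose libraries did not overlap. The lowest of these steps rest on few counts, 4 and 9 for Mir544 and 1 and 5 for Mir1197. Between Mir758 and Mir494 the nearest libraries were at 8.80 and 8.59 CPM. Counting error was not weighed in these steps.

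Mir411 (chr12:109710175-109710256) was counted at 1320 and 2510 CPM and Mir381 (chr12:109726822-109726896) at 1543 and 894 CPM. Mir667 was at 1326 and 891 CPM, and Mir668 at 850.2 and 1162 CPM. Each overlapped in range with the next one down in mean level, although both libraries of Mir411 lay above both of Mir668. Mir411 and Mir668 were higher in replicate 2, and Mir381 and Mir667 were higher in replicate 1. The same 5 genes were the highest 5 in each library, and 8 genes were among the highest 10 in both. The 3 highest members, Mir541, Mir487b and Mir382, held 51.5% of the array's counts and the 10 highest held 86.9% (means of the libraries). CPM is not divided by length, since a count is a short mature RNA whatever the length of its hairpin, from 61 to 123 bases as annotated here. Divided by that length, 9 of the 10 highest members were again among the highest 10, with Mir487b ahead of Mir541.

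**Figure D2:**
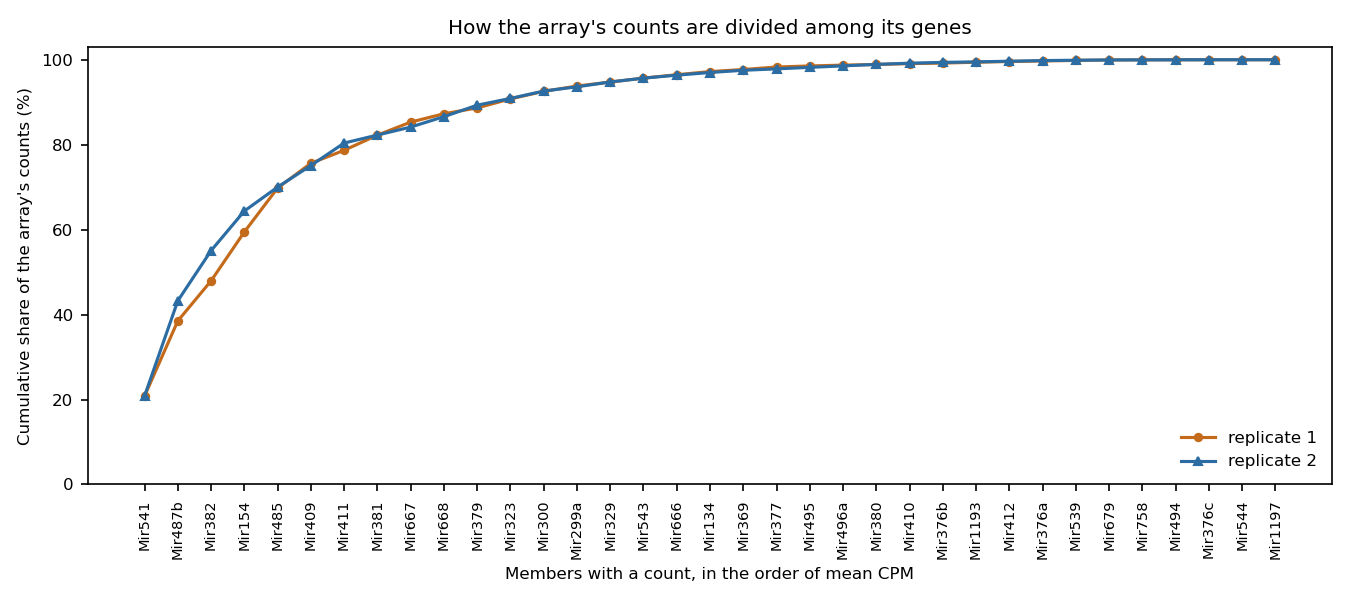
Running share of the array's counts in percent as members are added in the order of mean CPM, for replicate 1 (circles) and replicate 2 (triangles), over the 35 members with a count. Both lines pass 80% within the first 8 genes and are nearly flat after the first 20.

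Levels did not follow position in a simple slope. The members were split by order into sections of 13, 13 and 12 genes. The first section, Mir379 to Mir543, had a median of 347 CPM in replicate 1 and 333 CPM in replicate 2 and held 12.4% of the array's counts. The middle section, Mir495 to Mir382, had lower medians of 57.1 and 89.9 CPM and yet held 38.4% of the counts, most of them from Mir487b and Mir382. The last section, Mir134 to Mir410, had medians of 287 and 273 CPM and held 49.2%. The lower median of the middle section was not kept without the members below the detection minimum. With the detected members alone divided again into 3 sections, the mean of the libraries' middle medians was 414 CPM, against 340 CPM for the first section and 308 CPM for the last. With the unstranded column the first section's median was 76.9 CPM. Over the 33 detected members, log2 mean CPM and position had a Pearson r of 0.26 and a Spearman rho of 0.17, given as a description of genes that share the same libraries.

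The array was also divided by its annotated host. Mirg (chr12:109729764-109749460) is a long noncoding RNA gene, and 13 members, from Mir382 on, lie in it. Of these, 4 lie wholly in an exon of at least 1 transcript (Mir134, Mir485, Mir377 and Mir410), 4 lie partly in one and 5 lie in introns. The 25 members before Mirg lie in no annotated host gene on their strand. The members in Mirg held 59.8% of the array's counts and had medians of 319 and 297 CPM, and those before it had medians of 85.6 and 170 CPM. Both exons and introns held high and low members: exonic Mir485 and intronic Mir541 were high, exonic Mir410 and intronic Mir496a were low. The host sets are different genes in the same libraries, so these differences were not tested.

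Hairpins close together often differed in level. The 37 gaps between neighbouring genes ran from 20 to 4368 bases, with a median of 522, and 25 gaps were of 1000 bases or less. Among detected members with starts within 1 kb of each other (29 pairs), the median difference in log2 mean CPM was 2.91. Over all 528 pairs of detected members it was 2.92, and over the 32 pairs next to each other along the array it was 2.28. The median difference of a detected member between the 2 libraries was 0.45 on the same log2 scale, smaller than each of these medians between genes. That spread does not cover unequal recovery of different sequences in library preparation, which both libraries could share. Such recovery was not measured, so folds between genes here are folds in counts.

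At the end of the array 5 genes lie within 1.4 kb. Mir541, Mir409, Mir412, Mir369 and Mir410 follow each other in that order. Mir412 was at 73.4 and 68.7 CPM, 52 bases after Mir409 at 2521 and 2410 CPM. Mir369, whose miRNA acts with those of Mir496a and Mir543 on N-cadherin in newborn neurons, was at 211 and 250 CPM. Mir410, the last gene of the array, was at 86.9 and 132.6 CPM. Between Mir541 and Mir412 the level differed 122-fold in replicate 1 and 144-fold in replicate 2.

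A second tight group lies at the start of the Mirg portion. Mir382, Mir134, Mir668, Mir485 and Mir453 are within 1.93 kb. Mir134, which limits dendritic spine size through Limk1, was at 319 and 297 CPM, 12.8-fold and 18.9-fold below Mir382. Mir453 had no count in either library. The neighbouring Mir154 and Mir496a, 620 bases apart, differed 59.4-fold in replicate 1 and 27.4-fold in replicate 2.

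Before Mirg, Mir487b stood far above the neighbouring Mir539, 714 bases further on, which was at 54.0 and 36.9 CPM. The fold between them was 142 in replicate 1 and 288 in replicate 2. Other neighbours were close in level. Mir666 was at 347 and 333 CPM and Mir543, 74 bases on, at 399 and 429 CPM. Mir679 (48.5 and 32.5 CPM) and Mir1193 (85.6 and 60.3 CPM) are the closest pair of the array, 20 bases apart.

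The genes known for dendrites and spines were all detected. This list, Mir134, Mir329, Mir381 and Mir485, was drawn up with earlier results of these data known. Mir329, which acts with Mir134 and Mir381 in activity-dependent dendrite growth, was at 408 and 539 CPM. Mir485, printed above with its 3p arm alone, was the highest of the list by counts that do not tell its arms apart. It limits synapse strength through the vesicle protein Sv2a, and which of its arms was counted is not known. Together they held 12.4% of the array's counts, 0.674% of all counts in replicate 1 and 0.440% in replicate 2, with a median log2 ratio of replicate 2 over replicate 1 of -0.30. By the rule given further on, 0 of the 4 were called different between the libraries, where 18% of all 438 genes tested were called, so the count says nothing particular of the list.

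The migration and neurogenesis list, Mir369, Mir496a and Mir543, was lower in total. Its 3 genes held 1.69% of the array's counts. Gene by gene it overlapped with the dendrite list, since Mir543 (399 and 429 CPM) lay above Mir134 (319 and 297 CPM). Mir496a was at 83.8 and 161 CPM, which made it the most variable of the migration list. All 3 were detected, none reached 1000 CPM, and 1 of them, Mir496a, was called higher in replicate 2, against 9.36% of all genes tested. That call was lost with library totals (log2 ratio 0.94).

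The Mir376 genes are known for A-to-I editing of their transcripts in brain, which can change the seed of the mature miRNA. Mir376b was counted at 56.0 and 89.9 CPM and Mir376a at 57.1 and 72.9 CPM. Mir376c was much lower at 4.52 and 3.86 CPM, on 20 and 27 counts. The 5p arms of Mir376b and Mir376c, printed above, share a run of at least 18 bases, and a read that fits both loci would enter neither gene's count. No other arms of the array share such a run with another hairpin in the table on the same strand, apart from those of Mir299a with its opposite-strand partner Mir299b. Mir300, the next gene after Mir376a, was 13.5-fold and 11.3-fold above Mir376a at 768 and 821 CPM.

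Among the genes near the start of the array, levels ran from Mir411, described above, down to Mir758 (8.80 and 9.59 CPM) and Mir1197, which was below the detection minimum. Mir379, which gives the array its name, was at 591 and 1281 CPM, and Mir323 was at 921 and 757 CPM. Mir299a was at 538 and 476 CPM, and Mir380 at 63.7 and 170 CPM. Mir379 and Mir380 were more than 2 times higher in replicate 2, while Mir323 and Mir299a were slightly lower there. Further along, Mir495 was at 109 and 171 CPM and Mir377, in an exon of Mirg, at 255 and 156 CPM.

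The 8 lowest members were rare or uncounted. Besides Mir758, Mir494 was at 7.45 and 8.59 CPM. Mir544 had 4 and 9 counts and Mir1197 had 1 and 5, so both were below the detection minimum. Mir654, Mir453 and Gm27379 had no count in either library, which allows levels up to the limits given above. With Mir376c these make up the 8, and Mir758, Mir494, Mir1197, Mir453 and Mir376c among them carry a shared seed. The levels that follow are of genes, whose counts do not tell the arm with the shared seed from the other arm. For the seed GGUUGUC, Mir494 was low while its partner Mir410 was at 86.9 and 132.6 CPM. For GGUUGCC, Mir453 had no count and Mir496a was at 83.8 and 161 CPM. For GGUUGAC, both Mir1197 and Mir758 were low. For UGGAUAU, Mir376c was below Mir376b in both libraries. For GGUAGAC, Mir1193 was below Mir379 in both libraries, and for AUGUAAC, Mir379 was below Mir411 in both.

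Of the members, 5 overlap an annotated miRNA gene on the opposite strand: Mir299a with Mir299b, and Mir380, Mir376a, Mir539 and Mir409 with predicted genes. In the column that ignores strand these 5 had 0 counts in both libraries, while in the sense column Mir409 had 11169 and 16836. The opposite-strand counts of the 5 partners in replicate 1 were 2381, 282, 253, 239 and 11169, the same numbers as the sense counts of the 5 members, and the same held in replicate 2. Opposite-strand counts over all 38 members came to 0 in replicate 1 and 1 in replicate 2.

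How far the 2 libraries gave the same levels was then examined. For each of the 438 detected genes a two-sided exact binomial test set its counts against library sizes scaled by TMM, and p-values were adjusted over all 438 by Benjamini-Hochberg. These p-values cover counting error only, and 280 of the 438 genes, 26 of the 33 members among them, had an adjusted p below 0.05. A gene was called where the adjusted p was below 0.05 and the libraries differed 2 times or more. This compares 2 libraries, not conditions, and since each library cites its own adapter-trimming document, trimming and replicate cannot be told apart. Of the 33 members tested, 4 were called, all higher in replicate 2, where the background was 9.36% called higher in replicate 2 and 8.68% called higher in replicate 1, together 18%. The members' share of calls in the first direction was close to that background. Across the 33 members, log2 CPM in the libraries had a Pearson r of 0.98 and a Spearman rho of 0.97, as a description over genes, and 31 were within 2 times of each other in CPM.

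Mir380, with 282 and 1185 counts, had the largest log2 ratio of replicate 2 over replicate 1, 1.54 (95% counting interval 1.35 to 1.73, adjusted p = 2.06e-69 by the exact binomial test). Mir379 had 2617 and 8948 counts, a ratio of 1.24 (1.18 to 1.31), and Mir411 had 5849 and 17537 counts, a ratio of 1.05 (1.01 to 1.10). The starts of these 3 genes lie within 2.74 kb at the beginning of the array, and Mir299a, which lies among them, was not called, at -0.05 (-0.13 to 0.03). Mir496a, whose start is 30.1 kb from that of Mir379, had 371 and 1126 counts, a ratio of 1.07 (0.90 to 1.24, adjusted p = 2.00e-38 by the exact binomial test). With library totals in place of TMM, Mir411 (0.93) and Mir496a (0.94) fell short of a ratio of 2, and 2 members were called. At a ratio of 1.5 in place of 2, 10 members were called, 8 of them upward in replicate 2 and 2 (Mir381 and Mir485) downward, against backgrounds of 18.3% and 20.8%, or 39% in all.

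In the other direction, the lowest ratios were those of Mir381 (-0.66, interval -0.71 to -0.61) and Mir485 (-0.62, -0.65 to -0.59). The median log2 ratio of the 33 members was 0.23 and that of all 438 detected genes was -0.03. TMM scaling shifted every log2 ratio by 0.13 against library totals, with which these medians were 0.10 and -0.16. Hairpin GC was known for 35 members and ran from 29.1% in Mir376c to 62.0%, with a median of 43.3% against 51.7% over the hairpins of the table. Across 373 detected genes with a hairpin, the ratio and hairpin GC had a Spearman rho of -0.46, and across 32 such members it was -0.22, both as descriptions. The part of base composition in the members' ratios was not tested.

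**Figure D3:**
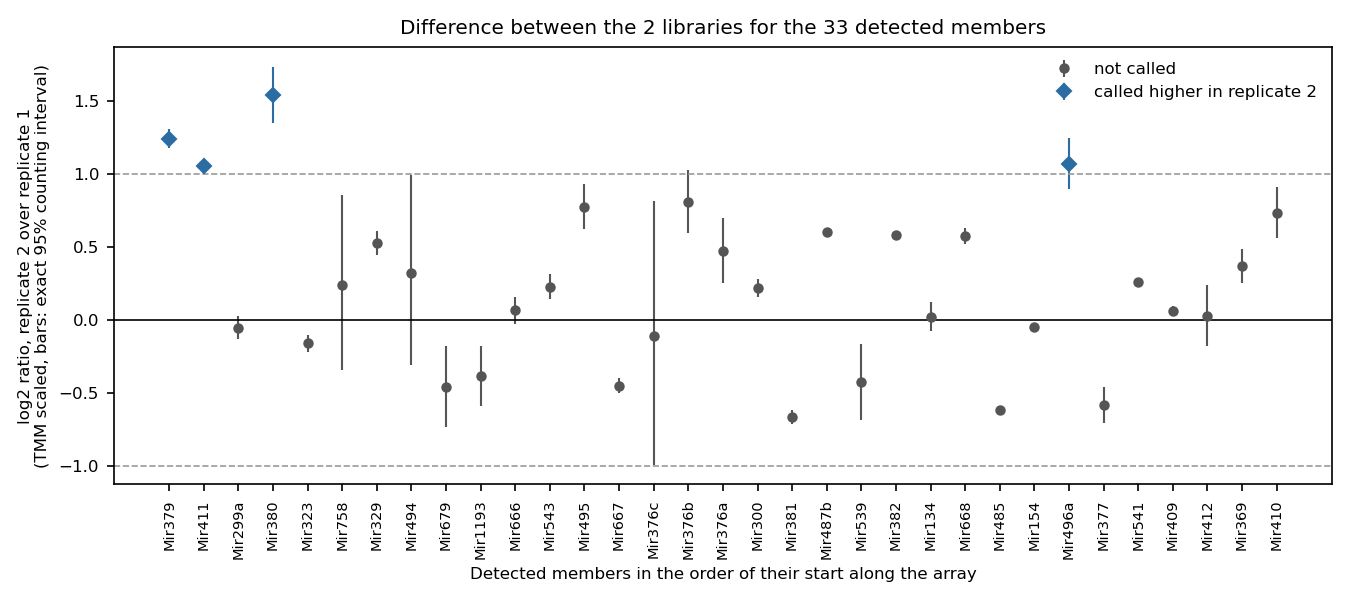
Log2 ratio of replicate 2 over replicate 1 after TMM scaling for the 33 detected members in the order of their start, with exact 95% counting intervals as bars and dashed lines at a ratio of 2. The 4 called genes (diamonds) lie above the upper line, 3 of them at the start of the array, and no member lies below the lower line.

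The array was set beside the rest of the same imprinted locus, the 19 plus-strand miRNA genes from Mir770 to before Mir379, which include the genes antisense to Rtl1. That region took 10.2% of all counts in replicate 1 and 7.97% in replicate 2. The array, with more genes, thus made up 29.8% and 37.3% of the counts of the locus. A single gene, Mir127, stood 5.16-fold and 4.38-fold above Mir541, the array's highest gene by mean CPM though not in replicate 2. Without Mir127 the rest of the locus held 5.57% and 3.64%. That was more than the array in replicate 1 and less in replicate 2, so their order by share without Mir127 was not fixed. Of the 19 genes, 16 were detected, against 19.9% of all genes, and their medians were 712 and 559 CPM. Between the libraries 0 of the 16 were called different, against 18% of all genes tested. Their median log2 ratio was -0.15, where that of the array was 0.23. These are differences between sets of genes in 2 libraries and were not tested.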

How the data were processed

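Small RNA of mouse cerebral cortex was measured in 2 libraries. The authors deposited 1 table per library with whole read counts for each annotated miRNA gene and no normalization, with columns for either strand and for each strand. Per the labels and the readme text deposited beside them, the tables use mm10 and GENCODE M21. No aligner or counter is named in the sources used here, and a different adapter-trimming document is cited for each library. Summary lines that name no gene were left out of library sizes. Unmapped reads made up 17.0% and 11.1% of all reads, and uniquely placed reads outside genes, by the sense column, 3.67% and 2.81%.

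Sense counts (column 3) were scaled to CPM of all gene rows. TMM factors came from edgeR 4.0.16 and size factors, as an alternative, from DESeq2 1.42.0, both on genes at 2 CPM or more in both libraries. With 1 library a side there are no residual degrees of freedom. Counts were therefore compared by an exact binomial test with Benjamini-Hochberg adjustment (scipy 1.17.1). The test was tried on data simulated with counting error alone, which does not cover further spread between libraries. Log2 ratios had 0.5 counts added to each count. Seeds and shared runs of 18 bases were read from RefSeq mature and hairpin sequences (GRCm38.p6), and hosts from GENCODE M21.

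Members named were the first and last gene, the 10 of highest mean CPM, those with no count, those called between libraries, those of the lists and those sharing a seed. Others were added to account for every member. The members and lists were chosen with earlier results of these data known. Alternatives were the unstranded column, levels per precursor length, other detection minimums and sections, other scalings, no filter, a lower ratio, thinning of the deeper library and leaving out each library.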

Additional observations from a re-analysis of the deposited data

How the results depend on the processing

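The array's share of counts was 4.17% with all uniquely placed reads as the library size, against 4.53%. Its median, 221 CPM as the mean of the 2 libraries' medians, was 136 CPM with the unstranded column and 238 CPM per precursor length. The median of the first section (340 CPM) was 76.9 CPM with the unstranded column, 269 CPM per precursor length and 279 CPM with 4 sections. That of the middle section (73.5 CPM) was 414 CPM with detected members alone. That of the last section (280 CPM) was 231 CPM with the unstranded column, 306 CPM per precursor length, 186 CPM with 4 sections and 308 CPM with detected members alone. The unstranded column sets the 5 members with an opposite-strand partner to 0. Between the libraries, 4 members were called, 2 with library totals and 10 at a ratio of 1.5 (8 higher in replicate 2 and 2 higher in replicate 1, Mir381 and Mir485). DESeq2 size factors, no filter and thinning each left 4 calls, of the same genes, and the unstranded column left 3, without Mir380. Detected members ranged from 28 with the unstranded column to 35 at 1 count or more in both libraries. Without replicate 1 or replicate 2 the share was 4.74% or 4.32%. No paired analysis was possible because there is 1 group. Without separate animals stated, 2 libraries limit every level and ratio, and no gene's count includes reads that fit more than 1 locus.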
